A study of Vitis vinifera with 18 samples.

Results

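The transcripts described here are 110 transcript clusters that were lower in Aglianico berries from Sicily than in Aglianico berries from Molise and Campania, while their level in Cabernet Sauvignon berries varied little between the same sites. They were chosen from 97442 clusters in the deposited table, of which 13971 held at least 20 counts in each of 17 libraries. For each of these, counts were divided by median-of-ratios size factors (one scaling number per library, giving normalised counts), put on a log2 scale and averaged per variety and site. In Aglianico, d is the smaller of Molise minus Sicily and Campania minus Sicily. A member had a d of at least 1 and above the gap between Molise and Campania, and the 3 Cabernet Sauvignon site means lay within 0.6 of each other. In all, 441 clusters had a d of at least 1, 429 of them a d above the gap between Molise and Campania, and 110 of those met the Cabernet Sauvignon condition as well. The upper limit of 200 members was not reached.

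The berries came from Vitis vinifera vines of Aglianico, a red variety of southern Italy, and of Cabernet Sauvignon, a red variety grown worldwide, in open fields at 3 sites: Campania, Molise and Sicily. All vines were trained as low bushes, and fruit was taken when fully ripe, as 3 biological replicates per variety at each site, giving 6 groups. Each replicate was a pool of 10 berries ground without seeds, so skin and flesh were measured together. Variety was crossed with site, and no other treatment is labelled. Site stands for everything that differed between the vineyards, and whether the replicates came from separate vines is not given, so the p-values measure the spread between these pools.

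In the grape berry, ripening brings sugar accumulation, loss of organic acids, softening of the flesh and, in red varieties, anthocyanin synthesis in the skin. Transcript levels in ripe berries are known to depend on both the variety and the growing site, and the extent to which a variety changes between sites is called its plasticity. A cluster that moves with site in one variety and holds its level in another is the simplest form of an interaction between genotype and environment. Neither the identity nor the function of the members can be given. The table names clusters by number, and 0 of the 97442 identifiers, hence 0 of the 110 members, matched the 29591 genes of the RefSeq table of assembly GCF_030704535.1. For the same reason the labelled tissue could not be checked against marker genes, and no sequence is shown.

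The 18 libraries held 22637307 to 31859647 expected counts. The library labelled Aglianico Campania replicate 3 stood apart from its group: of 1845 clusters whose Campania means differed by 1 or more (log2) between the varieties, 97.3% were nearer to Cabernet Sauvignon in it. The choice of members left it out, and so do the values below unless they name it, so Aglianico Campania has 2 libraries. The column of 1 Cabernet Sauvignon Sicily library carries no legible number and is called the unnumbered library. The Cabernet Sauvignon Sicily libraries differed in scaling, with size factors of 0.838 in the unnumbered library, 0.97 in replicate 2 and 1.15 in replicate 3. The TMM factors used for the tests, which apply on top of library totals, had another order, at 0.902, 1.02 and 0.967. Some results are also given without the unnumbered library and replicate 2, which leaves 1 library in that group. For the tests, 32033 clusters then passed the filter on counts. Leaving out Aglianico Campania replicate 1, which also makes a group of 1 library, let 55802 pass. The number passing thus depended on the unnumbered library and replicate 2 as well, and the cause was not tested.

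Within Aglianico, the members' summed level at Sicily lay far below that at the other sites. The summed normalised count of the 110 members was 253427 and 182037 in Aglianico Campania replicates 1 and 2, and 211131, 194611 and 242759 in Molise replicates 1, 2 and 3. At Sicily it was 62060, 70592 and 69152 in replicates 1, 2 and 3. All 3 Sicily libraries thus lay below all 5 libraries of the other sites, and the mean of those 5 was 3.22 times the Sicily mean. In Cabernet Sauvignon the sums were 112996 ± 6572 at Campania, 115113 ± 6231 at Molise and 111239 ± 3041 at Sicily (SD, n = 3 each), between the Aglianico levels. These sums repeat what the choice of members used and carry no test. In pooled tissue, fewer cells of a type and less RNA per cell cannot be told apart.

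**Figure D1:**
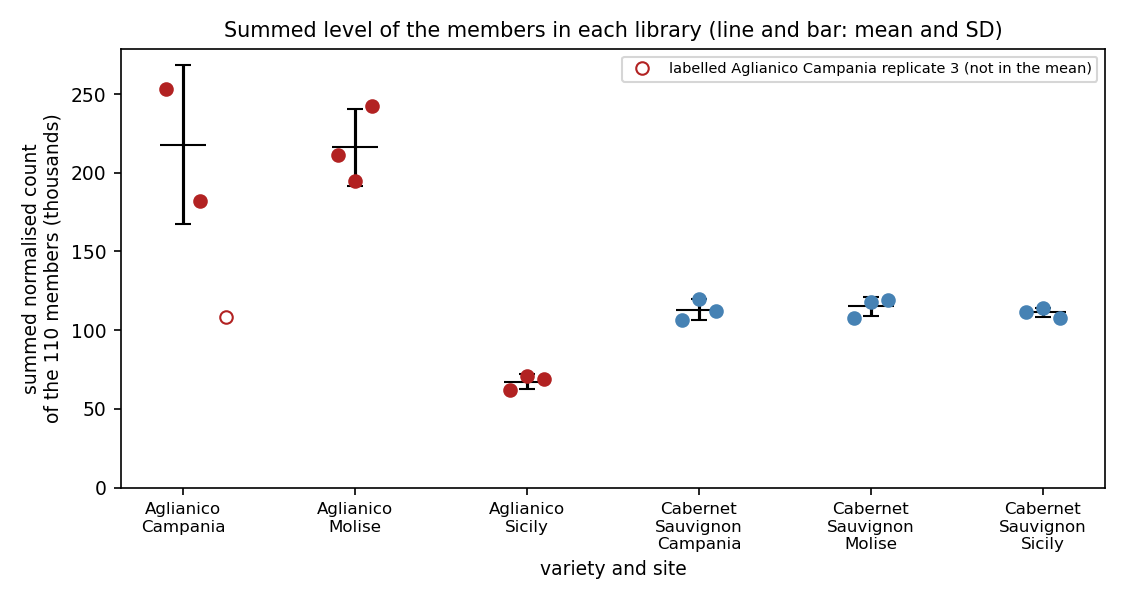
Summed normalised count of the 110 members (vertical axis, scaled as its label states) in each library, by variety and site (horizontal axis). Points are libraries, the line and bar give mean and SD, and the open circle is the library labelled Aglianico Campania replicate 3. The 3 Aglianico Sicily libraries lie lowest, at 62060 to 70592.

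The ratio was similar without the most abundant members. The 3 most abundant members held 24.1% to 41.3% of the sum in the Aglianico Molise and Campania libraries, 26.4% to 34.6% at Aglianico Sicily and 19.3% to 25% in Cabernet Sauvignon. Over the other 107 members the ratio of Aglianico Molise and Campania to Sicily was 3.13. The members held 0.801% to 0.939% of all counts in the Aglianico Molise and Campania libraries and 0.183% to 0.238% in Aglianico Sicily. The 3 Aglianico Sicily libraries also had the lowest size factors of the 17, 0.696 to 0.823, against 0.91 to 1.15 in the other Aglianico libraries. The part of this difference in single results was not tested. By share of all counts the members were lower at Sicily in Cabernet Sauvignon as well, at 0.358% to 0.439% against 0.488% to 0.563% at Campania and Molise, so their steadiness there holds for normalised counts and not for shares of the library total.

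Single members differed widely in how far they fell. The median d was 1.33, with an interquartile range of 1.13 to 1.62 and the extremes at 1.01 and 5.34. A d under 1.5 was found for 69 members, 26 lay from 1.5 to 2, and 15 were at 2 or more, of which 4 were at 3 or more. Against the mean of Molise and Campania, the median member was 2.84 times lower at Sicily. By the rule, the gap between Molise and Campania was smaller than d in every member. Molise was the higher in 52 members and in 7101 of all 13971 clusters. The median difference was -0.02 in the members and 0.01 over all clusters. By 0.5 or more, 14 members were higher at Molise and 9 at Campania, beside 1930 and 1690 of all clusters. The edges of the rule were not marked by gaps. The last member inside had a d of 1.01 and the first cluster outside 0.999. For the range of the Cabernet Sauvignon means, the corresponding values were 0.597 inside and 0.6001 outside.

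**Figure D2:**
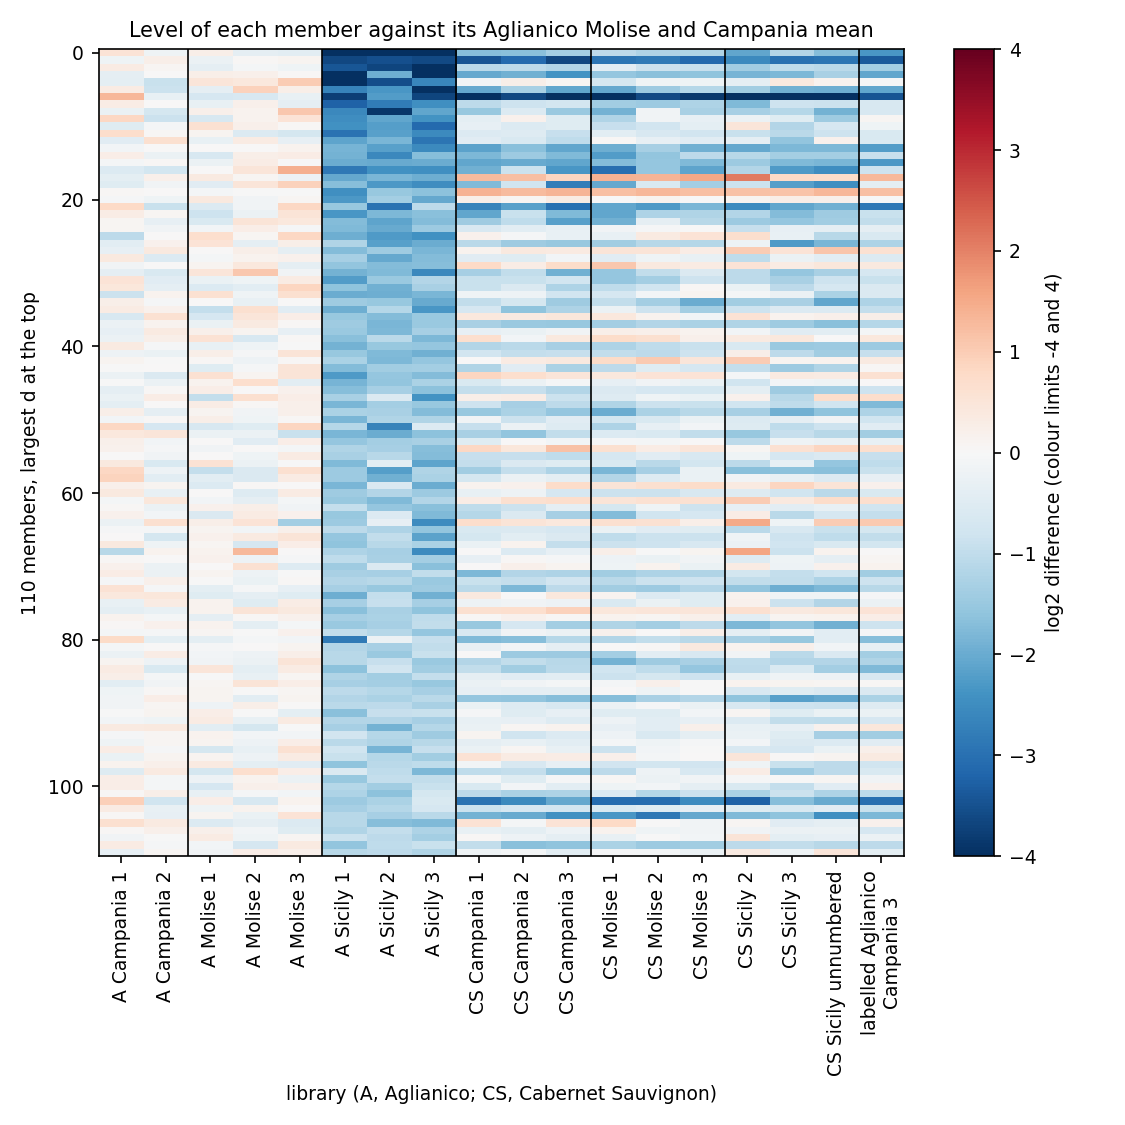
Log2 difference of each of the 110 members (rows, from the largest d of 5.34 at the top to the smallest of 1.01) in each library (columns) from its own mean over Aglianico Molise and Campania. Blue is lower and red higher. The last column is the library labelled Aglianico Campania replicate 3. The 3 Aglianico Sicily columns are blue in nearly all rows, while Cabernet Sauvignon rows run from blue to red with little change between sites.

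The rule used group means and not the spread between replicates. In 102 of the 110 members all 3 Aglianico Sicily libraries lay below all 5 Aglianico libraries of the other sites, and in 8 members the groups overlapped. Among all 13971 clusters the share without overlap in that direction was 12.4%. In the edgeR quasi-likelihood fit over 29738 clusters, 103 members were called lower at Sicily than the mean of Molise and Campania in Aglianico (adjusted p under 0.05), where 9.24% of all clusters were. Of the members, 5 were called in either direction for the same contrast in Cabernet Sauvignon, where 23% of all clusters were. The difference between the varieties in this contrast was called for 90 members, and for 21.5% of all clusters. Since the members were chosen on these contrasts, the counts describe them and show nothing further. The shares called are over the 29738 clusters fitted and not the 13971 that passed the minimum. They are not matched to the members for count level. Without the unnumbered library and Cabernet Sauvignon Sicily replicate 2, 85 of the 110 members met the rule again, and 0 were called in Cabernet Sauvignon (7 at an unadjusted p under 0.05, edgeR), where 3.17% of all clusters were. The difference between the varieties was then called for 47 members and for 6.06% of all clusters.

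Within-group spread was somewhat wider among the members than among clusters at large. The median SD of log2 values was 0.32 in the members and 0.25 over all 13971 clusters, pooled over the 6 groups. At Aglianico Sicily it was 0.31 against 0.2, and at Cabernet Sauvignon Molise 0.18 against 0.15. The members were also less abundant, with a median mean level of 342 normalised counts against 488, and 42 of the 110 lay above that median of all clusters. The lowest count of a member in any library was 20, at Aglianico Sicily, for which counting error alone gives an exact 95% Poisson interval of 12.2 to 30.9.

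Cluster-27903.39042 had the largest d, 5.34, and was the third most abundant member. Its normalised count was 31781 and 19278 in Aglianico Campania replicates 1 and 2, and 25436, 17153 and 16270.2 in Molise replicates 1, 2 and 3. At Sicily it was 191, 720.3 and 773, so the highest Sicily library lay far below the lowest of the other sites. In Cabernet Sauvignon it was 6686, 6791 and 8472 at Campania, 10653, 9493 and 9474 at Molise, and 5172, 9750 and 6704 at Sicily in replicate 2, replicate 3 and the unnumbered library. The Cabernet Sauvignon libraries all lay between the Aglianico Sicily libraries and the other Aglianico libraries. The mean of Aglianico Molise and Campania was 46.1 times the Sicily mean (geometric means), and the log2 difference of the Cabernet Sauvignon mean from Aglianico Molise and Campania was -1.46. Sicily replicate 1 weighs heavily in this fold, which was 29.2 without it.

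Cluster-27903.35268 came next, with a d of 3.56, and showed a different relation to Cabernet Sauvignon. It measured 3403 and 4535 normalised counts in Aglianico Campania replicates 1 and 2 and 3257, 4008 and 4200 in Molise replicates 1, 2 and 3, but 310.2, 340.5 and 316 in Sicily replicates 1, 2 and 3. Cabernet Sauvignon held 354, 451 and 306 at Campania and 505, 548 and 433 at Molise. At Sicily it held 658 in replicate 2, 493 in replicate 3 and 512 in the unnumbered library. Aglianico Sicily therefore lay at the lower end of the Cabernet Sauvignon range, and the 5 other Aglianico libraries lay above every Cabernet Sauvignon library. The fold within Aglianico was 12.

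The most abundant member, with a d of 1.3, changed less. In Aglianico it measured 25699.9 and 15959 at Campania, 19806.5, 13823 and 24642 at Molise, and 7243, 8725 and 7098 at Sicily. Cabernet Sauvignon held 9179 to 17043 over its 9 libraries, with a mean of 11390 ± 2290 at Sicily (SD, n = 3). The member at the median d measured 5836 and 5231 at Campania and 5753, 5036 and 7188 at Molise in Aglianico. At Sicily it measured 2325, 2661 and 1702, and in Cabernet Sauvignon 2843 to 5044. In both members the Aglianico Sicily libraries lay below all other Aglianico libraries and below every Cabernet Sauvignon library. The least abundant member, at 28.7 to 43.1 in Aglianico Sicily and 68.1 to 97.5 at the other Aglianico sites, overlapped with Cabernet Sauvignon (29 to 81.6).

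**Figure D3:**
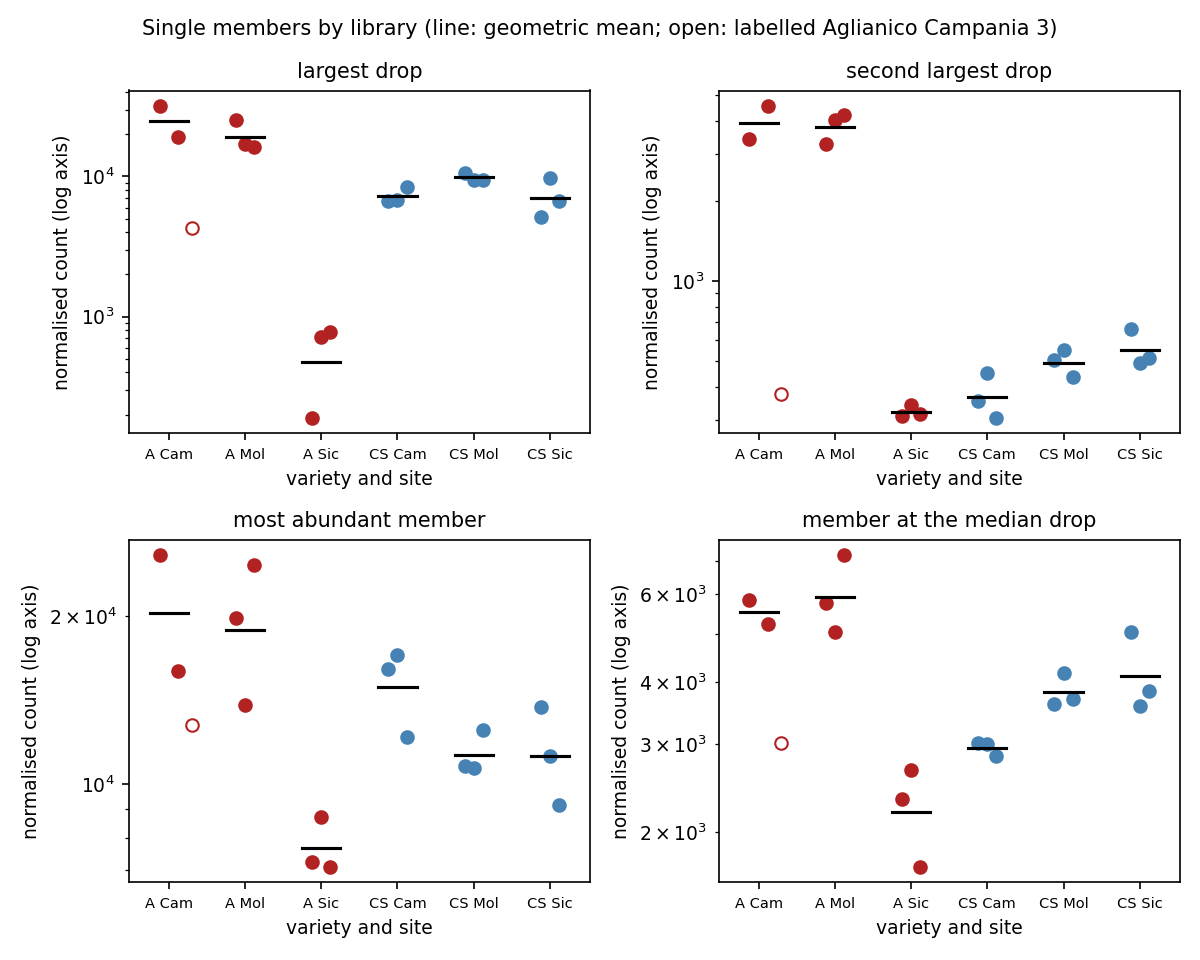
Normalised counts (log axis) of 4 members in every library, by variety and site (A, Aglianico; CS, Cabernet Sauvignon; Cam, Mol and Sic, the sites). Lines are geometric means and the open circle is the library labelled Aglianico Campania replicate 3. In the member with the largest drop, Aglianico Sicily lies at 191 to 773 and the other filled Aglianico points at 16270.2 to 31781.

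Because every library but the one left out took part in the choice, the same measure was read in libraries that had not been used. The rule was applied again without 1 Aglianico Sicily library, and the clusters it chose were read in that library. Without Sicily replicate 1 it chose 121 clusters, 100 of them among the 110 members. In replicate 1 itself 115 of the 121 lay below all 5 Aglianico Molise and Campania libraries, where 22.6% of all clusters passing the minimum did, and the median log2 difference from those libraries was -1.4. Without replicate 2 it chose 121, of which 107 lay below all 5 in replicate 2 (22.2% of all clusters), with a median of -1.31. Without replicate 3 it chose 110, of which 105 lay below all 5 in replicate 3 (26% of all clusters), with a median of -1.47. Most of the clusters were thus low in the Sicily library that had no part in the choice. The 5 Molise and Campania libraries they were compared with had been used in it, so the size of the difference is not independent of the rule, and the 3 pools share their site.

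The same was done for the Cabernet Sauvignon side. Of 109 clusters chosen without replicate 2 from Sicily, 18 lay below all 6 Molise and Campania libraries in it (25% of all clusters). The median log2 difference was 0.17. Of 104 chosen without replicate 3, 33 lay below (20.9% of all clusters), with a median of -0.17. Of 123 chosen without the unnumbered library, 43 lay below (25.9% of all clusters), with a median of -0.15. Above all 6 lay 37, 8 and 18 in the same order, and the share of all clusters above was not counted. By 1 or more (log2), 19, 1 and 2 were higher and 1, 7 and 8 lower. In these left-out libraries, in the same order, 67.9%, 79.8% and 71.5% of the chosen clusters lay within 0.6 of the Molise and Campania mean. Over all clusters the shares were 69.8%, 77.9% and 68.3%, close to these, so in a library that had no part in the choice the clusters chosen as steady were about as often within 0.6 as clusters at large. The medians in the left-out Cabernet Sauvignon libraries had both signs, and single clusters reached -1.72 and 2.06. Among the members as chosen, the Cabernet Sauvignon mean was lowest at Sicily in 43 (39.1%, against 35.2% of all clusters) and highest there in 31 (28.2%, against 33.7%).

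**Figure D4:**
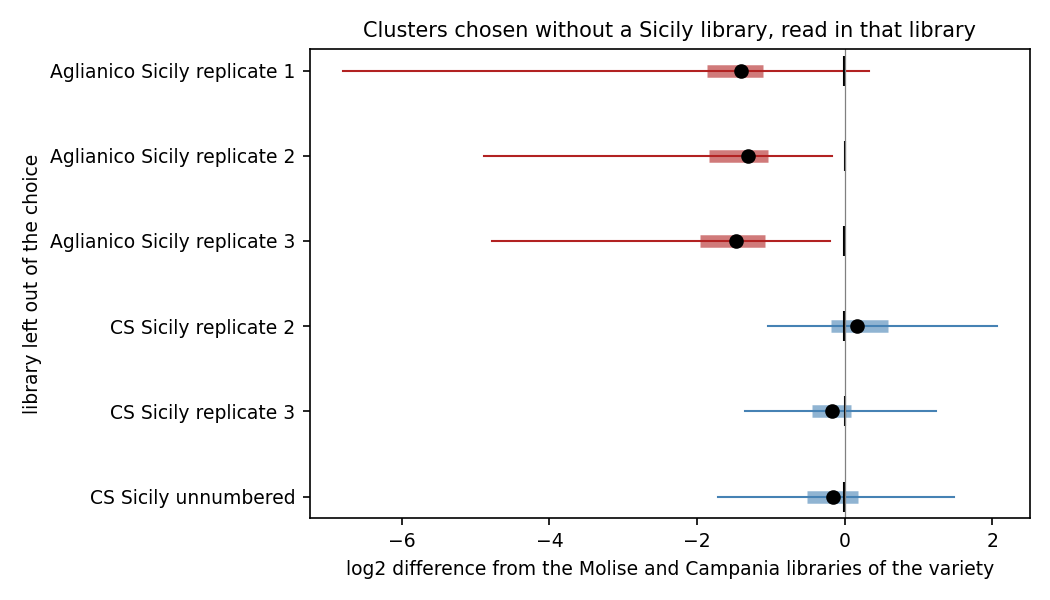
Log2 difference of a left-out Sicily library from the Molise and Campania libraries of its variety (horizontal axis), over the clusters chosen without that library (rows; CS, Cabernet Sauvignon). Dots are medians, thick bars the interquartile range, thin lines the full range, and upright ticks the median of all clusters. Medians lie between -1.47 and -1.31 in Aglianico and between -0.17 and 0.17 in Cabernet Sauvignon.

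The rule said nothing of the level at which Cabernet Sauvignon held steady, and the members differed in this respect. Its mean over sites lay above the Aglianico Molise and Campania mean in 19 members and below Aglianico Sicily in 10. Among the rest it lay between the 2 Aglianico levels, nearer to Molise and Campania in 50 and nearer to Sicily in 31. The median log2 difference of Cabernet Sauvignon was -0.57 from Aglianico Molise and Campania and 0.85 from Aglianico Sicily. Over all clusters both medians were 0.01. All 3 Aglianico Sicily libraries lay below all 9 Cabernet Sauvignon libraries in 62 members, against 9.61% of all clusters, and above them in 2, against 10.4%. The 5 Aglianico Molise and Campania libraries lay above all 9 Cabernet Sauvignon libraries in 34 members, against 3.94% of all clusters, and below them in 2, against 4.19%. These counts share libraries with the choice and are given as a description.

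The rule did not use the difference between the varieties averaged over the 3 sites, which was fitted across all 29738 clusters. It is not free of the rule, however. A fall in Aglianico beside a steady Cabernet Sauvignon keeps the varieties from matching at every site, so the counts are a description. By edgeR's quasi-likelihood test with Benjamini-Hochberg adjustment, 21 members were called higher in Cabernet Sauvignon (15.7% of all clusters were) and 35 lower (14.5% of all clusters). The other 54 were not called. In either direction that is 56 of 110 members, or 50.9%, beside 30.1% of all clusters. All clusters here are the 29738 fitted, which include clusters with too few counts to be members. The shares are therefore not matched for count level. The median log2 difference, Cabernet Sauvignon minus Aglianico, was -0.15 in the members and 0.04 over all clusters. Without Aglianico Campania replicate 1, which leaves that group with 1 library and raises the number of clusters tested to 55802, 36 members were called and 8.95% of all clusters. Without the unnumbered library and Cabernet Sauvignon Sicily replicate 2, which leaves 1 library in that group, the members' median log2 difference was -0.18.

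The Aglianico average includes Sicily, which is low in every member by choice, so an average over Molise and Campania was added after the data were seen. On that contrast 7 members were called higher in Cabernet Sauvignon (11.3% of all clusters) and 52 lower (11.7%). The choice favours clusters that happened to read high in Aglianico at those sites, so the contrast is not free of the rule. The 35 members called lower on the average over 3 sites were all among the 52. Of the 21 called higher, 7 were also called higher at Molise and Campania, and none was called lower.

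The split by this call fixes on which side of Aglianico the members lie, so their levels are given as a description. In the 35 called lower, the median log2 difference of Cabernet Sauvignon was -1.37 from Aglianico Molise and Campania and 0.3 from Aglianico Sicily, so its steady level was nearer to that of Aglianico at Sicily. In the 21 called higher it stood 0.46 above Aglianico Molise and Campania and 2.04 above Aglianico Sicily. In the 54 not called the medians were -0.49 and 0.94. The size of the fall in Aglianico was similar across the 3 sets, with a median d of 1.4, 1.45 and 1.28 in that order, and so was the level, with medians of 357, 355 and 315 normalised counts.

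**Figure D5:**
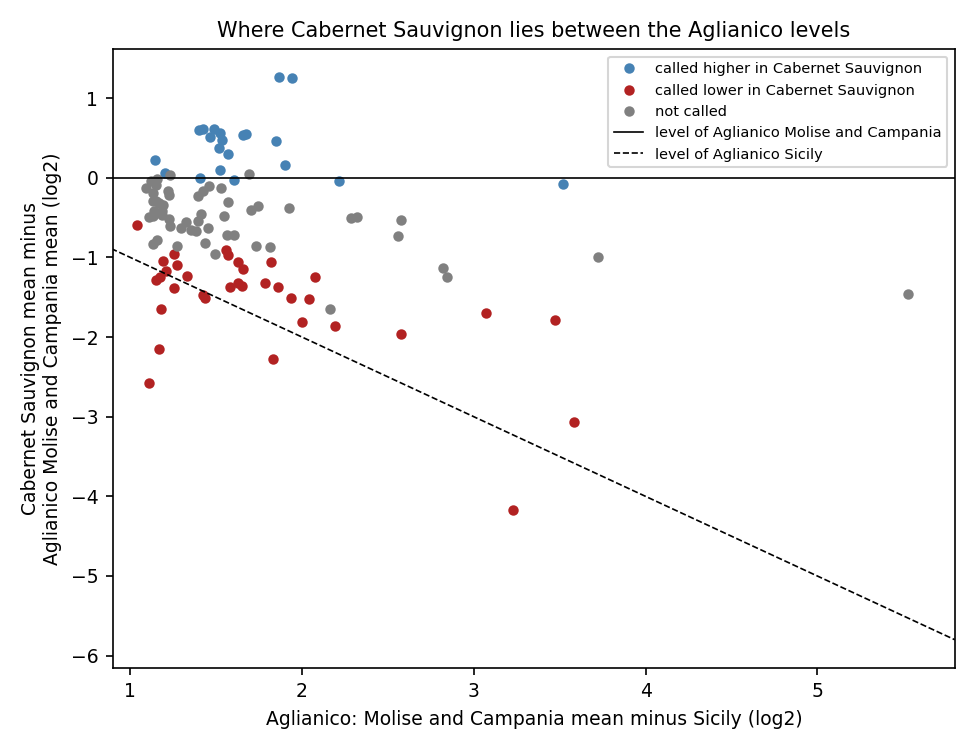
For each of the 110 members, the fall in Aglianico from the mean of Molise and Campania to Sicily (horizontal axis, log2) and the Cabernet Sauvignon mean relative to Aglianico Molise and Campania (vertical axis, log2). Points on the full line have the Aglianico Molise and Campania level in Cabernet Sauvignon, points on the dashed line the Aglianico Sicily level. Colours give the test averaged over sites, with 21 members called higher and 35 lower.

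The 2 members named next were called higher and had no overlap between the 9 Cabernet Sauvignon and the 8 Aglianico libraries. The share of all clusters without such overlap was not counted, so nothing is read from their number. Cluster-27903.45433 held a nearly constant level in Cabernet Sauvignon, 811, 752 and 797 normalised counts at Campania, 721, 782 and 717 at Molise, and 697, 684 and 777 at Sicily (replicate 2, replicate 3 and unnumbered). Aglianico held 321 and 318 at Campania, 298, 309 and 307 at Molise and 57.1, 109 and 101 at Sicily. All Aglianico libraries lay below all Cabernet Sauvignon libraries. The log2 difference averaged over sites was 1.81 ± 0.11 (SE, edgeR, adjusted p = 8.63e-08). That average includes Aglianico Sicily, low by choice, and over Molise and Campania alone the difference was 1.27. This cluster was the member placed highest in Cabernet Sauvignon relative to its fall in Aglianico, with a d of 1.83 and a Cabernet Sauvignon range of 0.13.

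Cluster-27903.43873 held 465, 453 and 358 normalised counts at Campania and 516, 504 and 569 at Molise in Cabernet Sauvignon. Its Sicily libraries were uneven, at 832 in replicate 2, 338 in replicate 3 and 326 in the unnumbered library. Aglianico held 150 and 227 at Campania, 253, 207 and 169 at Molise, and 47.4, 54.7 and 50.3 at Sicily. The lowest Cabernet Sauvignon library lay above the highest Aglianico library. The log2 difference averaged over sites was 1.88 ± 0.18 (SE, edgeR, adjusted p = 5.88e-06), and over Molise and Campania alone it was 1.23.

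The 2 members named from those called lower were picked in the same way, without overlap between the varieties. Cluster-27903.33881 was the second most abundant member and the one placed lowest in Cabernet Sauvignon relative to its fall in Aglianico, with 2628 to 7487 normalised counts over its 9 libraries (median 4192.5). Aglianico held 47104 and 14049 at Campania, 29732, 15919 and 27321 at Molise, and 8954, 10303 and 16084 at Sicily. Here Sicily replicate 3 overlapped with the other sites, so this is one of the 8 members whose Aglianico groups were not apart, at a d of 1.04. The log2 difference averaged over sites, Cabernet Sauvignon minus Aglianico, was -2.3 ± 0.3 (SE, edgeR, adjusted p = 8.68e-05). Over Molise and Campania alone it was -2.84.

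Cluster-27903.21912 held 49.2 to 116 normalised counts in Cabernet Sauvignon (median 86.3). In Aglianico it held 364 and 283 at Campania, 386, 297 and 521 at Molise and 164, 140.4 and 169 at Sicily. Its d was 1.03, and even the Sicily libraries stayed above every Cabernet Sauvignon library. The log2 difference averaged over sites was -1.8 ± 0.17 (SE, edgeR, adjusted p = 4.6e-06), and over Molise and Campania alone it was -2.28. For these 4 members the difference averaged over sites kept its direction in each of the 25 alternative fits. They were picked for this difference in the same libraries, so their p-values and the repeat describe them and show nothing further.

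The library labelled Aglianico Campania replicate 3 had no part in the choice of members. Of the 41 members whose Campania means differed by 1 or more (log2) between the varieties, 38 were nearer to Cabernet Sauvignon in it, or 92.7%. Its median difference from Aglianico Campania replicates 1 and 2 was -0.59 over the members and 0.01 over all clusters, while from the Cabernet Sauvignon Campania libraries it was 0.02 and 0. In Cluster-27903.35268 it held 377 normalised counts, against 3403 and 4535 in its labelled group and 306 to 451 in Cabernet Sauvignon Campania. In Cluster-27903.39042 it held 4297, below both its labelled group and the Cabernet Sauvignon Campania libraries. With it included among the Aglianico Campania libraries, 99 clusters met the rule, 86 of them members.

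The same rule turned round gives a sense of the size of the set. On the same scaling, 139 clusters were higher at Sicily in Aglianico with a steady level in Cabernet Sauvignon. With the varieties exchanged, 62 were lower and 188 higher at Sicily in Cabernet Sauvignon with a steady level in Aglianico. Whether fewer clusters fell than rose depended on the scaling: TMM factors gave 105 lower and 150 higher in Aglianico, and library totals alone gave 209 lower and 55 higher. Library totals shift the median cluster at Sicily by -0.36 in Aglianico and -0.39 in Cabernet Sauvignon. Each of the 110 members kept a positive d under each scaling tried, but with upper-quartile factors over all clusters 31 kept a d of at least 1, with a median of 0.79 and a lowest value of 0.31.

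Of the 319 clusters that fell in Aglianico by the rule but varied more in Cabernet Sauvignon, the Cabernet Sauvignon mean was lowest at Sicily in 126 (39.5%) and highest at Sicily in 112 (35.1%). These shares were near those of all clusters, 35.2% and 33.7%.

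Neighbouring identifiers were found for some members. All 110 members belong to the series of numbers that begins with Cluster-27903, as do 13970 of the 13971 clusters that passed the minimum. Among the members, 10 had another member within 3 numbers, forming 5 pairs. The d values were 2.01 and 1.75 in 1 pair, 1.57 and 1.7 in another and 1.13 and 1.38 in another. They lay further apart, at 2.19 and 1.51 and at 2 and 1.3, in the remaining pairs. In the order given, the correlation within a pair over the 17 libraries was 0.92, 0.96, 0.69, 0.75 and 0.68. Whether the members of a pair are parts of 1 transcript was not tested. The number of pairs due to chance was not worked out. A value that is not whole, which arises when reads are divided between clusters, was found in at least 1 library for 92 members (83.6%, against 76.9% of all clusters). The level of a single member is uncertain to the extent that related sequences share its reads.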

How the data were processed

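RNA was sequenced from ripe berries of 2 varieties at 3 sites, in 18 libraries of polyadenylated RNA. The authors deposited expected counts, which are estimates and can hold decimals, per transcript cluster and not scaled for depth. CASAVA 1.8, RSEM and DESeq2 are listed with no roles, per the submitters' processing notes. The aligner, assembler and reference were not given in the sources used here. Samples were grouped by title, and 1 column was matched to its group alone; 0 columns were left unused.

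Members and lists were chosen with earlier results of these data known. Deposited values were used for the rule and for normalised counts, with size factors over the 13971 clusters. For tests, expected counts were rounded, filtered with filterByExpr, scaled by TMM and fitted with edgeR 4.0.16 (glmQLFit, robust, 6 group means, 17 libraries, R 4.3.3), and p-values were adjusted by Benjamini-Hochberg over 29738 clusters. Standard errors are the log2 difference over the square root of F. Left-out libraries were read with 0.5 added to counts. Clusters named were the 2 largest d with at least 5 CPM, and the 2 largest variety differences each way without overlap between varieties. Others are described by rank. Alternatives were other scalings, filters, DESeq2 1.42.0, limma-voom 3.58.1, a replicate block and left-out libraries.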

Additional observations from a re-analysis of the deposited data

Results flagged for a closer look

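The site contrast (Sicily against the mean of Molise and Campania) differed between the varieties in 90 of the 110 members by edgeR's interaction test, which the choice of members builds in. The log2 difference between the varieties was 5.01 for Cluster-27903.39042, 3.88 for Cluster-27903.35268, 1.93 for Cluster-27903.43873, 1.64 for Cluster-27903.45433 and 1.44 for Cluster-27903.21912.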

How the results depend on the processing

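Membership depended on scaling and on the minimum count. Upper-quartile factors over all clusters left 6 clusters meeting the rule and 0 members; they shift the median cluster at Sicily by 0.48 in Aglianico and -1.52 in Cabernet Sauvignon, so no member kept a Cabernet Sauvignon range under 0.6 and 31 kept a d of at least 1. Read over the 13971 clusters, a choice made after seeing the data, they gave 120 and 86. Library totals gave 209 and 59. A minimum of 50 counts kept 71 members, the number that reached it. Leaving out the unnumbered library and Cabernet Sauvignon Sicily replicate 2, which leaves 1 library in that group, gave 120 clusters, 85 of them members. Leaving out 1 library gave 104 to 123 clusters and kept 90 to 105 members.

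Of the counts of calls, that of members lower at Aglianico Sicily stayed within 93 to 105 without any 1 library. The count averaged over sites ranged from 36 to 56 and was 59 over Molise and Campania. The interaction count ranged from 58 to 90 and was 47 without both of those libraries. The 5 Cabernet Sauvignon calls became 13 under upper-quartile scaling, where 7832 of all 29738 clusters tested were called. They became 2 with no filter (7329 of 97300), by limma-voom (5497 of 29738) or with all 18 libraries (5156 of 27519). Without 1 library the count was 1 to 6. It was 1 without the unnumbered library, and 2 or 3 without Aglianico Molise replicate 1, any Aglianico Sicily replicate, Cabernet Sauvignon Campania replicate 1 or 3, or any Cabernet Sauvignon Molise replicate. The lowest values without 1 library for the variety and interaction counts came without Aglianico Campania replicate 1, where a group of 1 library lowers the filter. The numbers of all clusters called moved too. Without Aglianico Sicily replicate 3, 94 members and 1555 of 29535 clusters were called lower at Aglianico Sicily, and 75 and 4616 for the interaction. With all 17 libraries these were 103 and 2747 of 29738, and 90 and 6389. In Cabernet Sauvignon, 1 member and 4494 of 29258 clusters were called without the unnumbered library. The fit with a replicate block also left out the unnumbered library, so the 2 changes cannot be told apart in it. In that fit 105 members were called lower at Aglianico Sicily, 52 on the average over sites, 80 for the interaction and 0 in Cabernet Sauvignon. Of all 29258 clusters in that fit, 2485, 8577, 4960 and 4171 were called in the same order. The libraries were not taken as paired, since the labels give no shared source. Of 35 same-numbered pairs, 16 had a correlation above 0.1 (median 0.08, highest 0.38), and 35 of 70 comparisons were highest with the same number. The number due to chance was not worked out, so these values do not decide whether the libraries are paired. Where the count was 0, with the block, 9 members had an unadjusted p under 0.05 (edgeR). DESeq2 on all 17 libraries called 5 members in Cabernet Sauvignon, and 6903 of all 29738 clusters tested. The causes were not tested unless stated.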
